A study of Mus musculus with 2 samples.

Results

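A set of 7 genes that led the Lgr5-high crypt cells but are seldom used as stem cell markers was followed across cell classes and cell cycle states. They are Htr4, Cyyr1, Sorbs2, Limch1, Fmnl2, Slc12a2 and Clca3a2, 7 of the 55401 genes in the deposited table, and all 7 were found by name. They were chosen by their RNA in Lgr5-high cells, so their RNA across cell classes and across Lgr5 levels is a description and no evidence that they mark stem cells. Open chromatin and cell cycle state were not used to choose them, but Lgr5 RNA itself differed between the states. Levels by state are therefore not independent of the choice.

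A single TrnA-mutant mouse gave all cells. Its age was 55 weeks, its load of the mutation in TrnA, the mitochondrial gene for the alanine tRNA, was 73%, and the tissue was the epithelium of the small intestine. Epithelial cells were flow sorted, fixed and profiled with the 10x Multiome kit, which reads RNA and open chromatin (ATAC) from the same cells. Acute colitis is named in the series title, the labels do not say if colitis was induced here, and no control animal was analysed. All comparisons therefore set cells of this 1 mutant mouse side by side. There are no replicates and no p-values, and every interval below covers counting error at the 95% level only.

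Lgr5 marks the stem cells at the base of the intestinal crypt, which divide and give rise to transit-amplifying progenitors and then to absorptive and secretory cells. Of the 7 genes, Htr4 encodes a serotonin receptor that couples to the stimulatory G protein and cAMP. Slc12a2 encodes the basolateral sodium-potassium-chloride cotransporter NKCC1 that loads secretory cells with chloride, Clca3a2 a member of the CLCA family, and Cyyr1 a little-studied cysteine- and tyrosine-rich membrane protein. The other three act on the actin cytoskeleton: Sorbs2 is an adaptor with SH3 domains at actin-based adhesions, Limch1 is linked to non-muscle myosin II, and Fmnl2 is a formin that elongates actin filaments.

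For Sorbs2 and Limch1, which have several annotated starts, and for Fmnl2, the 250 bases before the start are shown because the chromatin results below turn on which start was open. Sequences and starts are from RefSeq (GRCm38.p6, the mm10 build of the files), which held 9 start windows for 5 of the 7 genes, 4 of them printed here. Each sequence reads 5′ to 3′ on the gene's strand and ends at the base before the start, and capitals mark a match to a searched motif. Sorbs2 start 1 lies on the plus strand after chr8:45507538-45507787, and Sorbs2 start 2, inside the gene, after chr8:45627501-45627750. Limch1 start 1 (plus strand) follows chr5:66745639-66745888 and Fmnl2 (plus strand) follows chr2:52857618-52857867.
Sorbs2 start 1: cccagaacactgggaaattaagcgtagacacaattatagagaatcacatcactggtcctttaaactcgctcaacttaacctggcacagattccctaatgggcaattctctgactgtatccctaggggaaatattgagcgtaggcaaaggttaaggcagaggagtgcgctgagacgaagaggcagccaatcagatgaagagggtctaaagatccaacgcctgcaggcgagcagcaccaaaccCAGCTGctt
Sorbs2 start 2: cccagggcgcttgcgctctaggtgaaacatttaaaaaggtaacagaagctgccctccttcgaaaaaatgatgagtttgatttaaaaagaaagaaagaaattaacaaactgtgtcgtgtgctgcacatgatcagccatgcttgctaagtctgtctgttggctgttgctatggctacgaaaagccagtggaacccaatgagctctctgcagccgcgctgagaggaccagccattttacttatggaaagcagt
Limch1 start 1: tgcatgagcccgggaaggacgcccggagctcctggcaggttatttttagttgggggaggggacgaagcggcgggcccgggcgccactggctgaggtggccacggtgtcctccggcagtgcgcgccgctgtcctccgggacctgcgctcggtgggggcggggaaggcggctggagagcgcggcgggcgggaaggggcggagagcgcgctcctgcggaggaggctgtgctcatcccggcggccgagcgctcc
Fmnl2: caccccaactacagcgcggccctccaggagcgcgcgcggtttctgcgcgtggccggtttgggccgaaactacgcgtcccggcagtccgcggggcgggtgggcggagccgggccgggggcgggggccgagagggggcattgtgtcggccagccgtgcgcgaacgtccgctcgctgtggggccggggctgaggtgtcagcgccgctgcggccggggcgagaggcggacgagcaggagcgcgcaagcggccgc
The searched motifs were CTTTGAT (the core of TCF/LEF sites), CAGCTG (an E-box), GATAA (GATA) and AAAGTCC (a piece of an HNF4 site), on both strands. Of all 32851 promoter windows, 3.21% hold the TCF/LEF core, 13.0% the E-box, 22.6% the GATA motif and 3.58% the HNF4 piece. The E-box of Sorbs2 start 1 begins 9 bases before the start and is the 1 match in the printed windows, and matches in the other windows are not reported here. The windows of Fmnl2 (77.6% GC, 40 CpG dinucleotides) and Limch1 start 1 (74.4%, 30) were rich in GC, while those of Sorbs2 start 1 (48.8%, 7) and start 2 (45.6%, 7) lay below the median window at 52.4%. A match is a description of the letters and shows no binding.

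The deposited matrix held 71697164 unique molecular identifiers (UMIs, each 1 captured RNA molecule) and 197564789 counts in 146191 peaks for 12363 barcodes, of which 9872 cells were kept. RNA levels are given in CPM, UMIs per 1000000 nuclear-encoded UMIs, because mitochondrial transcripts took 66.1% of the UMIs of kept cells. Levels of different genes are not compared with each other. RNA clusters were made without the 7 genes and named from markers. Doublets were not removed, since Scrublet called 0 cells. At the main resolution the stem and the cycling cells fell into 1 cluster of 1821 cells, called crypt progenitor-like here. Its leading genes included Cenpp, Htr4, Pola1 and Clca3a2. Lgr5 stood at 318 CPM there, at 407 in Paneth-like, 312 in tuft-like and 12.2 in enterocyte-like cells, so Lgr5 RNA alone did not single out the crypt progenitors. The separation of stem-like from cycling-like cells below comes from clusters of the ATAC data.

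The 2609 enterocyte-like cells, which absorb nutrients on the villus, had far less of all 7 genes than the crypt progenitor-like class. Htr4 stood at 303 CPM (289 to 318) against 5.71 (3.62 to 8.57), a 53.1-fold difference. Cyyr1 stood at 111 against 1.99, a 55.7-fold difference that rests on 8 UMIs in enterocyte-like cells. Slc12a2, the most widely detected of the 7, stood at 1905 against 123, a 15.4-fold difference and the smallest of the set. The others lay between: Clca3a2 at 732 against 32.0 (22.9-fold), Fmnl2 at 88.7 against 3.23 (27.5-fold), Sorbs2 at 394 against 12.2 (32.4-fold) and Limch1 at 69.6 against 1.99 (35.0-fold). Of 6530 genes that were kept out of clustering and had at least 20 UMIs, 36.1% were at least 2-fold higher in crypt progenitor-like cells, and the median gene had a log2 ratio of 0.53. The choice of the genes made this contrast, so nothing is read from the count of 7 of 7. The size depends on how the classes were made: with classes from ATAC clusters the log2 ratios were 3.12 for Htr4, 3.23 for Cyyr1 and 2.59 to 3.42 for the other 5 genes, beside 5.73, 5.80 and 3.95 to 5.13 with classes from RNA.

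The share of cells with a UMI also separated these 2 classes, and was higher in the crypt progenitor-like class for all 7 genes. With every cell thinned to 500 nuclear-encoded UMIs, Slc12a2 was seen in 53.4% of crypt progenitor-like cells (51.0 to 55.7%) and in 5.59% of enterocyte-like cells. Clca3a2 was seen in 27.0% against 1.18%, and Htr4 in 12.6% against 0.243%. Limch1, at 3.79% (2.96 to 4.77%) against 0.0811%, was the least often seen, and its enterocyte-like share rests on 2 cells. Thinning left out 142 enterocyte-like and 0 crypt progenitor-like cells. Without thinning the shares in crypt progenitor-like cells ran from 14.7% for Limch1 to 85.8% for Slc12a2, at median depths of 2674 nuclear-encoded UMIs there and 1062 in enterocyte-like cells. Free RNA in droplets can give UMIs in cells that do not express a gene, and in enterocyte-like cells the Paneth markers summed to 5648 CPM and the goblet markers to 7092. The part of free RNA in the low levels and shares of the 7 genes was not tested.

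**Figure D1:**
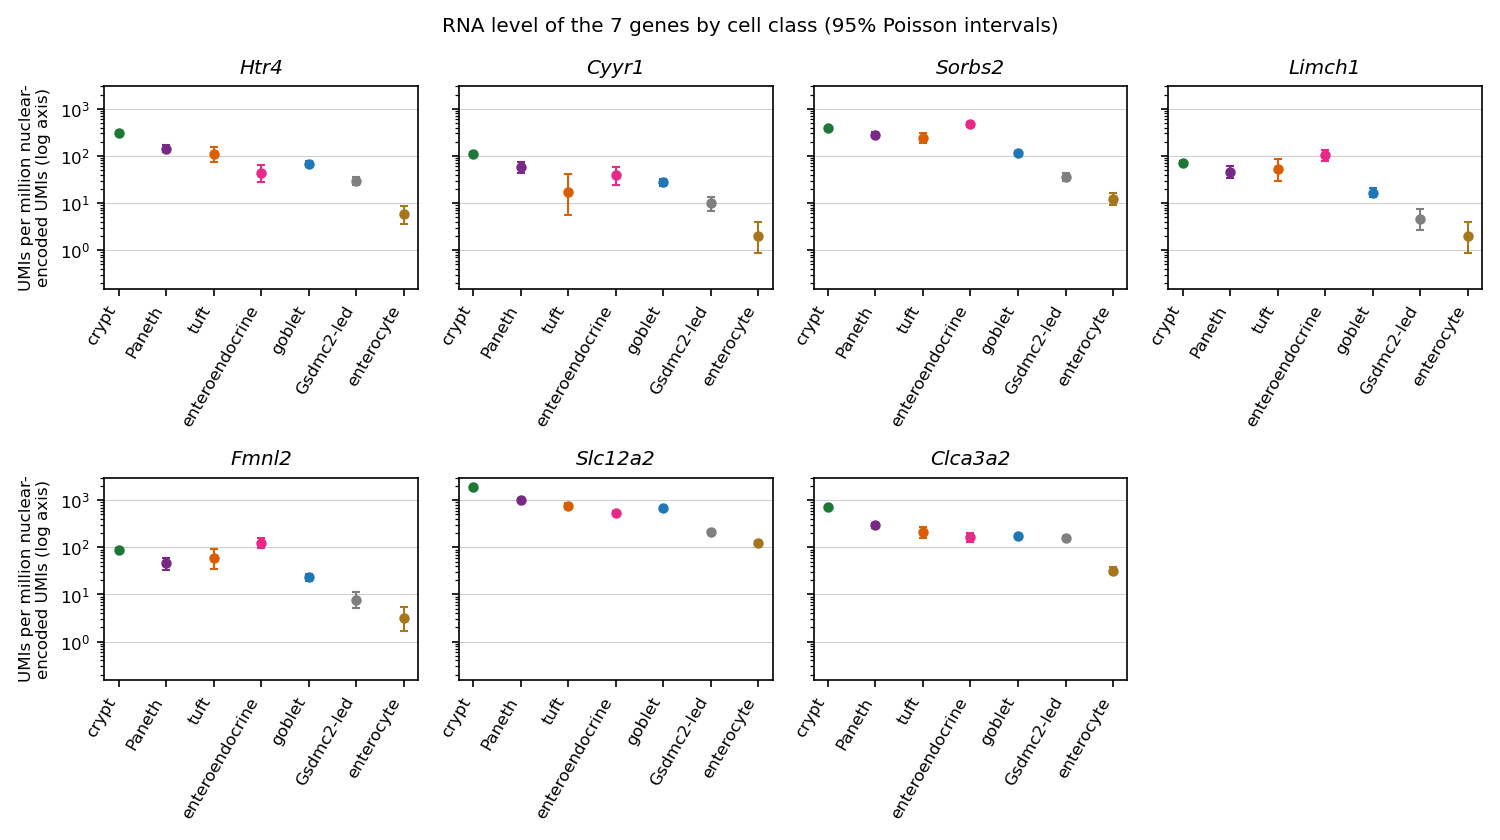
Level of each gene in 7 cell classes, in CPM on a log axis, with 95% Poisson intervals over the summed counts of 1 animal. Among the classes plotted, which leave out lymphocyte-like cells, enterocyte-like cells have the lowest point for each of the 7 genes, and Sorbs2, Limch1 and Fmnl2 reach their highest value in enteroendocrine-like cells (470.5, 105 and 124) while Htr4 stands at 42.6 there.

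The secretory classes divided the 7 genes. Sorbs2, Limch1 and Fmnl2, the 3 cytoskeletal genes, were higher in the 210 enteroendocrine-like cells, the hormone-producing cells, than in the crypt progenitor-like class. Sorbs2 stood at 470.5 (416 to 531) against 394, Limch1 at 105 (79.7 to 135) against 69.6, and Fmnl2 at 124 (96.9 to 157) against 88.7. These are differences of 1.19-, 1.51- and 1.40-fold, and the counting intervals of the 3 log2 ratios (-0.44 to -0.07, -0.99 to -0.17 and -0.85 to -0.11, crypt progenitor-like over enteroendocrine-like) leave out 0. Htr4 went the other way and was 7.12-fold lower in enteroendocrine-like cells, as were Clca3a2 (4.43-fold), Slc12a2 (3.55-fold) and Cyyr1 (2.83-fold). In this comparison 15.8% of 6287 genes were at least 2-fold higher in crypt progenitor-like cells, which these 4 of the 7 genes were.

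The enteroendocrine signal of the cytoskeletal genes was spread over many cells. Sorbs2 was seen in 115 of the 210 cells with 265 UMIs, of which the highest 3 cells held 23, and Limch1 and Fmnl2 were each seen in 43. Cyyr1 had 22 UMIs in 9 cells, 15 of them in 3 cells. At a finer resolution the enteroendocrine-like cells parted into 167 cells with Gip and Sst, hormones of K and D cells, and 43 cells with Tph1, the enzyme of serotonin synthesis in enterochromaffin cells. Sorbs2 stood at 548 CPM (482 to 620) in the first and 118 (61.2 to 207) in the second. Fmnl2 stood at 145 (112 to 184) against 29.6 (6.10 to 86.5), and Limch1 at 123 (93.5 to 160) against 19.7 (2.39 to 71.3). The 43 cells with high Tph1 thus carried less of all 3, and neither Htr4 nor Cyyr1 had a UMI in them, which allows up to 36.4 CPM for each. Clca3a2 stood at 29.6 (6.10 to 86.5) in them against 195 (157 to 240), and Slc12a2 at 365 (257 to 503) against 574 (507 to 647). Lower levels in these cells were therefore not particular to the cytoskeletal genes.

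Paneth-like cells, which lie beside the stem cells at the crypt base, carried all 7 genes at intermediate levels. Sorbs2 stood at 284 CPM (252 to 318), only 1.39-fold below crypt progenitor-like cells. Htr4 stood at 142 (2.14-fold below) and Clca3a2 at 294.5 (2.48-fold below), and these were the 2 of 7 genes past 2-fold, where 25.5% of 6201 genes were. The 13 stem markers summed to 3012 CPM in Paneth-like and 4214 in crypt progenitor-like cells, and the 12 Paneth markers to 201500 and 2416. The part of stem cell RNA in these values was not tested.

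Goblet-like cells, which secrete mucus, had all 7 genes 2.76-fold (Slc12a2) to 4.42-fold (Htr4) below the crypt progenitor-like class, and 18.0% of 6703 genes were at least 2-fold below. This average hid a split between clusters. In the goblet cluster led by Pdia5 and Slc12a8 (541 cells), Sorbs2 stood at 176 CPM (156 to 197), Htr4 at 84.3 and Slc12a2 at 1057. In the cluster led by Gm379 and Hs3st5 (641 cells), Sorbs2 stood at 9.46 (5.04 to 16.2), Htr4 at 8.01 and Slc12a2 at 202. Fmnl2 had 51 UMIs in the first and 0 in the second, which allows up to 2.69 CPM. The levels in the second cluster were close to those of enterocyte-like cells for Sorbs2, Htr4, Clca3a2 (30.6) and Cyyr1 (1.46). A further goblet cluster of 328 cells had the highest mean doublet score of the 14 clusters (0.183), and it held Htr4 at 95.7 and Sorbs2 at 135.

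In the 101 tuft-like cells, the chemosensory cells, several levels rested on few cells. Htr4 reached 111 CPM, but 24 of its 32 UMIs came from 3 cells. Slc12a2 was broader, with a UMI in 57 of the 101 cells and a level of 765 (667 to 873). Sorbs2 had 70 UMIs in 23 cells and a level of 242 (189 to 306). Cyyr1, Clca3a2, Htr4 and Slc12a2, 4 of the 7, were at least 2-fold higher in the crypt progenitor-like class (2.49- to 6.39-fold), as were 15.9% of 6102 genes. Among the 27 lymphocyte-like cells Fmnl2 stood at 368 CPM, and all its 16 UMIs came from 3 cells. Values of this size in so few cells describe those cells, not the class.

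An unnamed cluster of 1023 cells led by Gsdmc2 was enriched for no marker list, and Clca3a2 was less reduced there than the other 6 genes. It stood at 161 CPM (148 to 175), 4.55-fold below crypt progenitor-like cells and well above the 32.0 of enterocyte-like cells. The other 6 genes were 8.91-fold (Slc12a2) to 15.1-fold (Limch1) lower than in crypt progenitor-like cells. With cells thinned to 500 nuclear-encoded UMIs, Clca3a2 was seen in 7.14% of these cells (5.64 to 8.89%) against 1.18% (0.789 to 1.68%) of enterocyte-like cells. Unthinned, the shares were 30.0% and 3.95%, at median depths of 2715 and 1062 nuclear-encoded UMIs. In this comparison 15.9% of genes were at least 2-fold higher in crypt progenitor-like cells, and all 7 were.

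Clusters of the ATAC data separated 831 stem-like cells from 379 cycling-like cells, of which 649 and 303 belonged to the crypt progenitor-like class. The RNA of the stem-like cells was led by Lgr5 and by Cyyr1, Sorbs2, Limch1, Htr4 and Fmnl2 among others, so these values again describe the choice of the genes. The 221 peaks in or within 100000 bases of the 7 genes were kept out of this clustering. Cyyr1 stood at 213 CPM (196 to 231) in stem-like and 59.3 (46.1 to 75.0) in cycling-like cells, a 3.59-fold difference. Limch1 stood at 135 against 40.4 (3.35-fold) and Sorbs2 at 714 against 217 (3.29-fold). Slc12a2 (2940 against 1180, 2.49-fold), Fmnl2 (156 against 63.6, 2.46-fold) and Htr4 (447 against 197, 2.27-fold) differed less. Clca3a2, at 995 against 582.5, was 1.71-fold higher and missed 2-fold. Lgr5 itself stood at 693.5 against 119. Of 5635 genes, 6.46% were at least 2-fold higher in the stem-like cells, and 6 of the 7 genes were, from which nothing is read. Sorbs2 stood above its enteroendocrine-like level in these stem-like cells, while the intervals of Limch1 (122 to 150) and Fmnl2 (142 to 172) overlap those of enteroendocrine-like cells. Split from RNA at resolution 2, the count was 4 of 7. That split named 3 clusters stem-like, and Sorbs2 stood at 876 in the 1 led by Lgr5 and at 292 and 283 in the others. Of these others the first was shallow (median 1234 nuclear-encoded UMIs), and the second had a mean doublet score of 0.215 and enterocyte markers at 14700 CPM.

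Cell cycle state was read from S and G2M gene lists in the 1773 crypt progenitor-like cells with at least 1000 nuclear-encoded UMIs, each thinned to that number. A state needed at least 3 UMIs of its list. There were 1061 cells in G2M, 483 in S and 229 in neither, and 280 cells lay near that limit. All 7 genes had their highest level in cells of neither state and their lowest in G2M, although Fmnl2 in neither and in S overlapped within counting error. Sorbs2 stood at 703 CPM (635 to 776) in neither, 463 (429 to 499) in S and 321 (303 to 339) in G2M. Limch1 stood at 146, 91.6 and 49.5, and its G2M level was 2.95-fold lower than in neither, the largest difference of the 7. Clca3a2 stood at 1011, 792.5 and 668, the smallest difference at 1.51-fold.

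The genes differed in where the step lay. Cyyr1 stood at 197 (161 to 237) in neither and was already at 109 (92.9 to 127) in S, close to its 98.3 (88.6 to 109) in G2M. Fmnl2 stood at 126 (98.4 to 159) in neither and 123 (106 to 142) in S, and at 69.7 (61.6 to 78.6) in G2M. Htr4 (442, 355, 263) and Slc12a2 (2947, 2207, 1636) were lower at each step. At least 2-fold lower in G2M than in neither were 2 of the 7 genes, Sorbs2 and Limch1, and 3.96% of 5686 genes were. Cyyr1 missed that limit narrowly, at 1.999-fold. In S none of the 7 was 2-fold lower, where 1.78% of 4889 genes were.

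Lgr5 moved with the states too, at 627, 374 and 251 CPM in neither, S and G2M. The 7 genes were chosen in Lgr5-high cells, so their levels by state are not independent of that choice. Among cells that kept a Lgr5 UMI after thinning, the differences between G2M and neither were smaller and 0 of the 7 genes passed 2-fold, where 2.49% of 3418 genes did. Lgr5 was not held equal among these cells. It stood at 1521 (1352 to 1705) in neither, 1583 (1443 to 1732) in S and 1264 (1172 to 1362) in G2M. Sorbs2 then stood at 1206 (1056 to 1371) in the 84 cells of neither state and 817 (743 to 896) in the 152 of G2M. Fmnl2 stood at 166 (113 to 234) and 152 (121 to 188), with intervals that overlap widely, and at 225 (174 to 285) in S, which overlaps both intervals. Cyyr1 stood at 347 (269 to 440) in neither, 158 (116 to 210) in S and 225 (187 to 268) in G2M, and was the 1 gene of 7 at least 2-fold lower in S, where 2.59% of 2703 genes were. Depth moved with the states as well: the median was 2120 nuclear-encoded UMIs in neither, 2526 in S and 3049 in G2M. Enterocyte markers summed to 4665, 4235 and 4352 CPM, and the part of depth in the state differences was not tested.

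**Figure D2:**
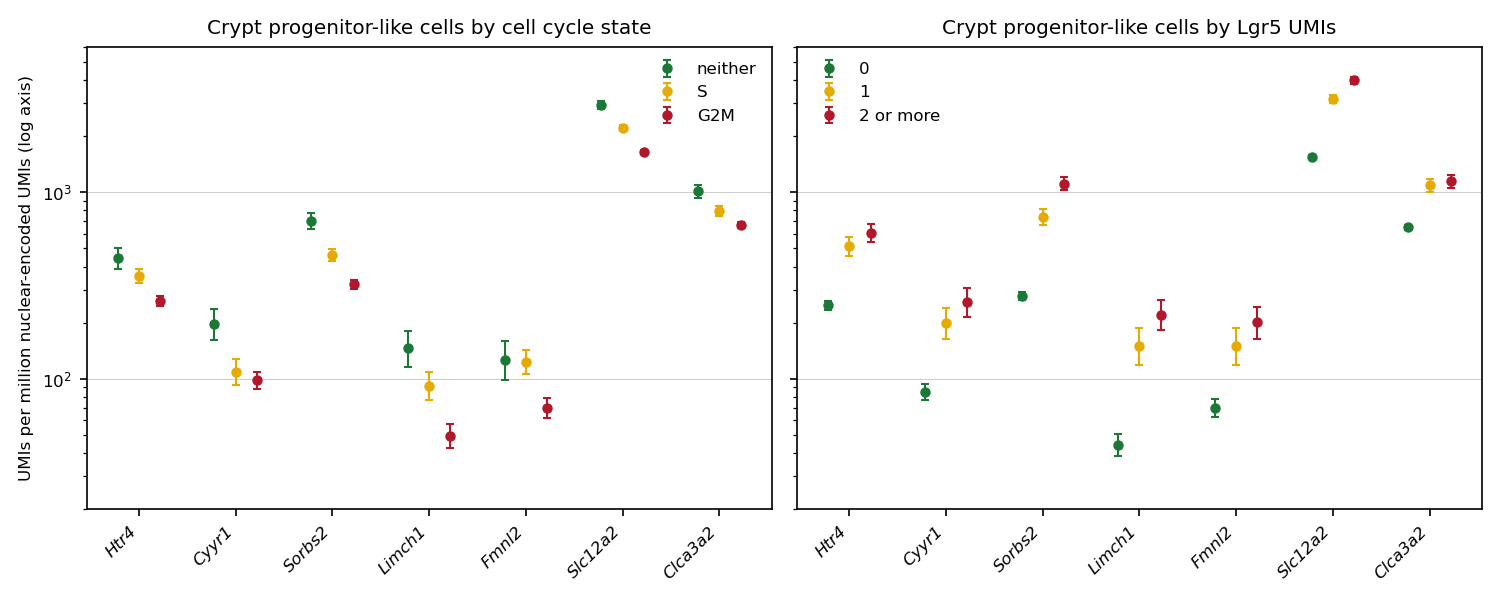
Levels of the 7 genes in crypt progenitor-like cells by cell cycle state (left) and by Lgr5 UMIs after thinning (right), in CPM on a log axis, with 95% Poisson intervals. Every gene is lowest in G2M (Limch1 at 49.5 against 146 in neither) and lowest in cells without a Lgr5 UMI (Limch1 at 44.3 against 221 with 2 or more).

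Levels by Lgr5 describe the choice of the genes and show how unevenly the 7 follow it. From 1441 cells with no Lgr5 UMI after thinning to 174 cells with at least 2, Limch1 went from 44.3 to 221 CPM (4.99-fold) and Sorbs2 from 278 to 1113 (4.01-fold). Htr4 went from 247 to 607.5 (2.46-fold) and Clca3a2 from 648.5 to 1145 (1.76-fold). The share of all 5873 genes at least 2-fold higher was 5.45%. The intervals of Clca3a2 overlap between 1 Lgr5 UMI (1091, 1004 to 1184) and at least 2 (1145, 1054 to 1241), and those of Sorbs2 do not (670 to 818 and 1024 to 1209). Within the neither state alone, Cyyr1 stood at 329 against 116, Sorbs2 at 1100 against 434 and Clca3a2 at 1327 against 830, and 5 of the 7 genes (all but Fmnl2 and Clca3a2) were at least 2-fold higher, as were 3.99% of 2532 genes.

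Across the 14 RNA clusters the 7 genes varied together, measured as Pearson r of log2 levels with 5 CPM added. The 7 genes were chosen for high RNA in the same Lgr5-high cells, so a high r between them again describes that choice. The clusters share 1 library, and r describes them only. Sorbs2 and Limch1 had an r of 0.97, Htr4 and Clca3a2 one of 0.96, and the lowest of the 21 pairs was Limch1 with Htr4 at 0.83. Among 4940 other genes that were kept out of clustering, the 3 most like Sorbs2 were Usp31 (0.98), Hunk (0.98) and the stem cell gene Smoc2 (0.96). Hunk, a kinase gene (0.97), and Usp31 (0.95) also led for Limch1. Htr4 was most like Rad51b (0.96), a recombination gene, Smoc2 (0.96) and Gm47283 (0.95). Clca3a2 was most like Alms1 (0.98), Sema5a (0.98) and Ccdc57 (0.97). Fmnl2 was most like Chst11 (0.98), Rassf4 (0.96) and Pacs1 (0.95). Slc12a2 was nearest to Ncapg2 (0.97), a condensin gene, then 3110082I17Rik (0.95) and Greb1 (0.95), and Cyyr1 to 3110082I17Rik (0.96), Pola1 (0.95) and Ccdc57 (0.95).

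Open chromatin was counted in FPM, ATAC fragments per 1000000 fragments of the class in peaks. Promoter peaks, those within 1000 bases of a start given in the gene table, were more open in the crypt progenitor-like than the enterocyte-like class for all 7 genes and at least 2-fold so for 6. For Sorbs2 this was 1 peak before start 1, and start 2 was left out. The share of all 22666 promoters at least 2-fold more open was 20.9%. Htr4 (chr18:62323413-62324227) stood at 21.5 (19.7 to 23.4) against 2.92 (2.21 to 3.78), a 7.37-fold difference. Fmnl2 stood at 7.84 against 1.07 (7.29-fold) and Cyyr1 at 6.82 against 1.28 (5.34-fold). At the other end Clca3a2 stood at 23.2 against 11.3 (2.07-fold) and Slc12a2 at 55.6 against 33.8 (1.64-fold). The promoters of the 2 genes with the least promoter difference were thus open in enterocyte-like cells as well, while their RNA differed 22.9- and 15.4-fold.

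Sorbs2 and Limch1 have 3 RefSeq starts each, and these were not equally open. At Sorbs2 start 2, the internal start printed above, the 2 peaks within 1000 bases held 23.5 FPM (21.6 to 25.5) in crypt progenitor-like cells. At start 1 the value was 3.75 (3.01 to 4.61), and start 3 had no peak. The 1 peak counted at start 1 (chr8:45506091-45506951) ends before that start and before the printed window, so no peak covers either. At Limch1 start 1 the peaks within 1000 bases held 10.9 (9.58 to 12.3) against 2.15 (1.60 to 2.83) at start 3 and no peak at start 2. The classes differed by start: in enteroendocrine-like cells Limch1 start 1 reached 20.3 (14.6 to 27.6), above crypt progenitor-like cells, while start 3 had 1 fragment. Sorbs2 start 2 stood at 26.8 (20.1 to 34.9) in enteroendocrine-like and 30.1 (20.3 to 43.0) in tuft-like cells, and start 1 at 1.49 and 2.01. The Fmnl2 start stood at 13.4 (8.82 to 19.5) in enteroendocrine-like and 13.0 (6.94 to 22.3) in tuft-like cells against 7.84 (6.75 to 9.05) in crypt progenitor-like cells. Limch1 start 1 and Fmnl2 were thus more open in enteroendocrine-like cells, though the interval of Fmnl2 just meets that of crypt progenitor-like cells, and for Sorbs2 start 2 the intervals overlap. RNA reads here do not tell which start was used.

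**Figure D3:**
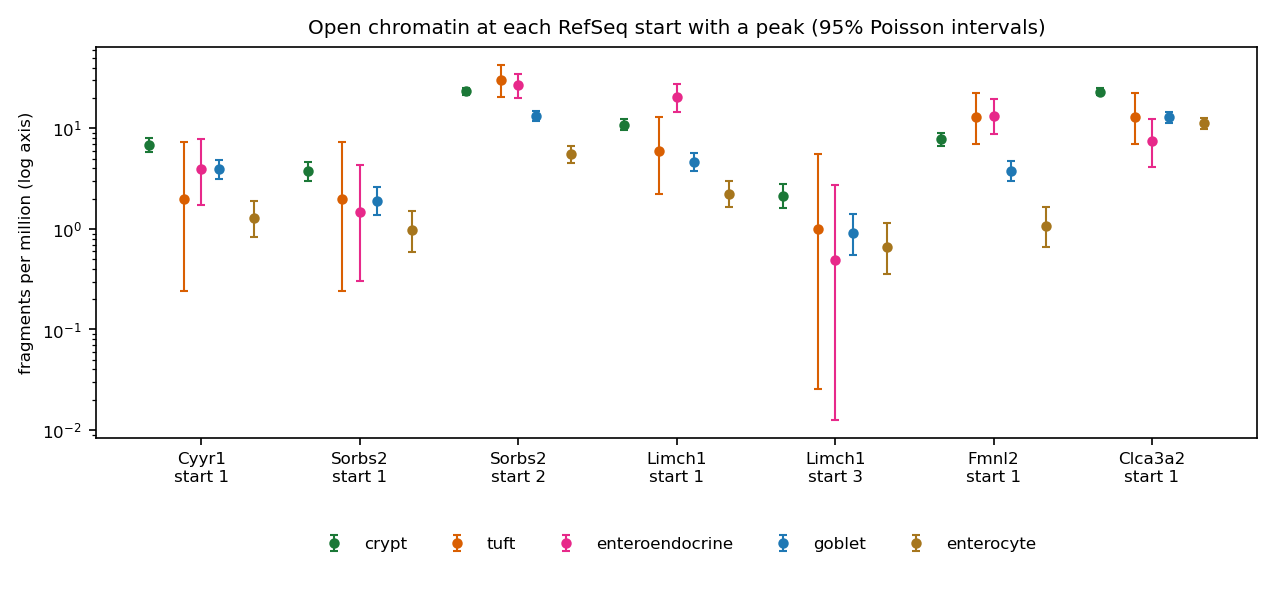
FPM in peaks within 1000 bases of each RefSeq start that has one, by class, on a log axis with 95% Poisson intervals. Limch1 start 1 is highest in enteroendocrine-like cells (20.3), Sorbs2 start 2 lies far above start 1 (23.5 against 3.75 in crypt progenitor-like cells), and Clca3a2 varies least between crypt progenitor-like (23.2) and enterocyte-like cells (11.3). The value of Sorbs2 start 1 is from a peak that ends before that start.

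The promoters of Htr4, Clca3a2, Slc12a2, Cyyr1 and Sorbs2 (start 1) had lower values in enteroendocrine-like than in crypt progenitor-like cells. Only for Clca3a2 (0.91 to 2.49) and Slc12a2 (0.02 to 0.66) did the interval of the log2 ratio leave out 0. Slc12a2 stood at 44.1 against 55.6, a 1.26-fold difference. The Htr4 promoter stood at 14.9 (10.0 to 21.2) in enteroendocrine-like cells against 21.5 in crypt progenitor-like cells, a 1.44-fold difference with overlapping intervals beside 7.12-fold for its RNA. Clca3a2 stood at 7.44 (4.16 to 12.3) there, 3.13-fold lower. In the unnamed cluster led by Gsdmc2 the Clca3a2 promoter stood at 19.0 (16.8 to 21.4), near the 23.2 of crypt progenitor-like cells.

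The 7 gene bodies held 108 peaks, 103 of which had at least 20 fragments in the classes compared. Of these, 70 were at least 2-fold more open in the crypt progenitor-like than the enterocyte-like class and 4 were at least 2-fold less open. Over all 142027 peaks the shares were 25.2% and 20.3%. All 10 such peaks of Htr4, 5 of 6 of Cyyr1, 16 of 26 of Sorbs2, 12 of 19 of Limch1 and 15 of 24 of Fmnl2 were on the higher side. At Slc12a2 the promoter missed 2-fold, and all 11 other peaks passed, from 2.41- to 8.24-fold. Clca3a2 had 1 higher peak, its promoter, and 2 lower ones of 6. Those 2 lay 18326 and 19443 bases into the gene and stood at 1.60 and 3.96 in crypt progenitor-like against 7.21 and 12.4 in enterocyte-like cells.

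In each gene body the peak with the largest ratio was picked, so a ratio above the promoter's follows largely from that choice. In 6 of the genes the picked peak was not the promoter. The counting intervals of the picked Htr4, Sorbs2 and Fmnl2 peaks overlap those of their promoters. The Limch1 peak at chr5:66798444-66799173, 52963 bases after the first start, stood at 6.57 against 0.205, a 32.1-fold difference (4 fragments in enterocyte-like cells). The Cyyr1 peak at chr16:85454817-85455712, 95153 bases into the gene, stood at 18.3 against 0.972 (18.8-fold). In the 101 tuft-like cells it stood at 21.1, where all 6 Cyyr1 peaks together held 25 fragments. Cyyr1 RNA stood at 17.3 CPM (5.62 to 40.4) there on 5 UMIs, so both values rest on few counts. The Fmnl2 peak at chr2:52929865-52930759 stood at 20.9 against 1.64 (12.8-fold), and its promoter at 7.84. The Htr4 peak at chr18:62368753-62369646 differed 11.2-fold, that of Sorbs2 at chr8:45584900-45585557 8.69-fold and that of Slc12a2 at chr18:57942155-57942988 8.24-fold. The Sorbs2 peak lies inside the non-coding gene Gm16351. For Clca3a2 the peak with the largest ratio was the promoter itself.

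**Figure D4:**
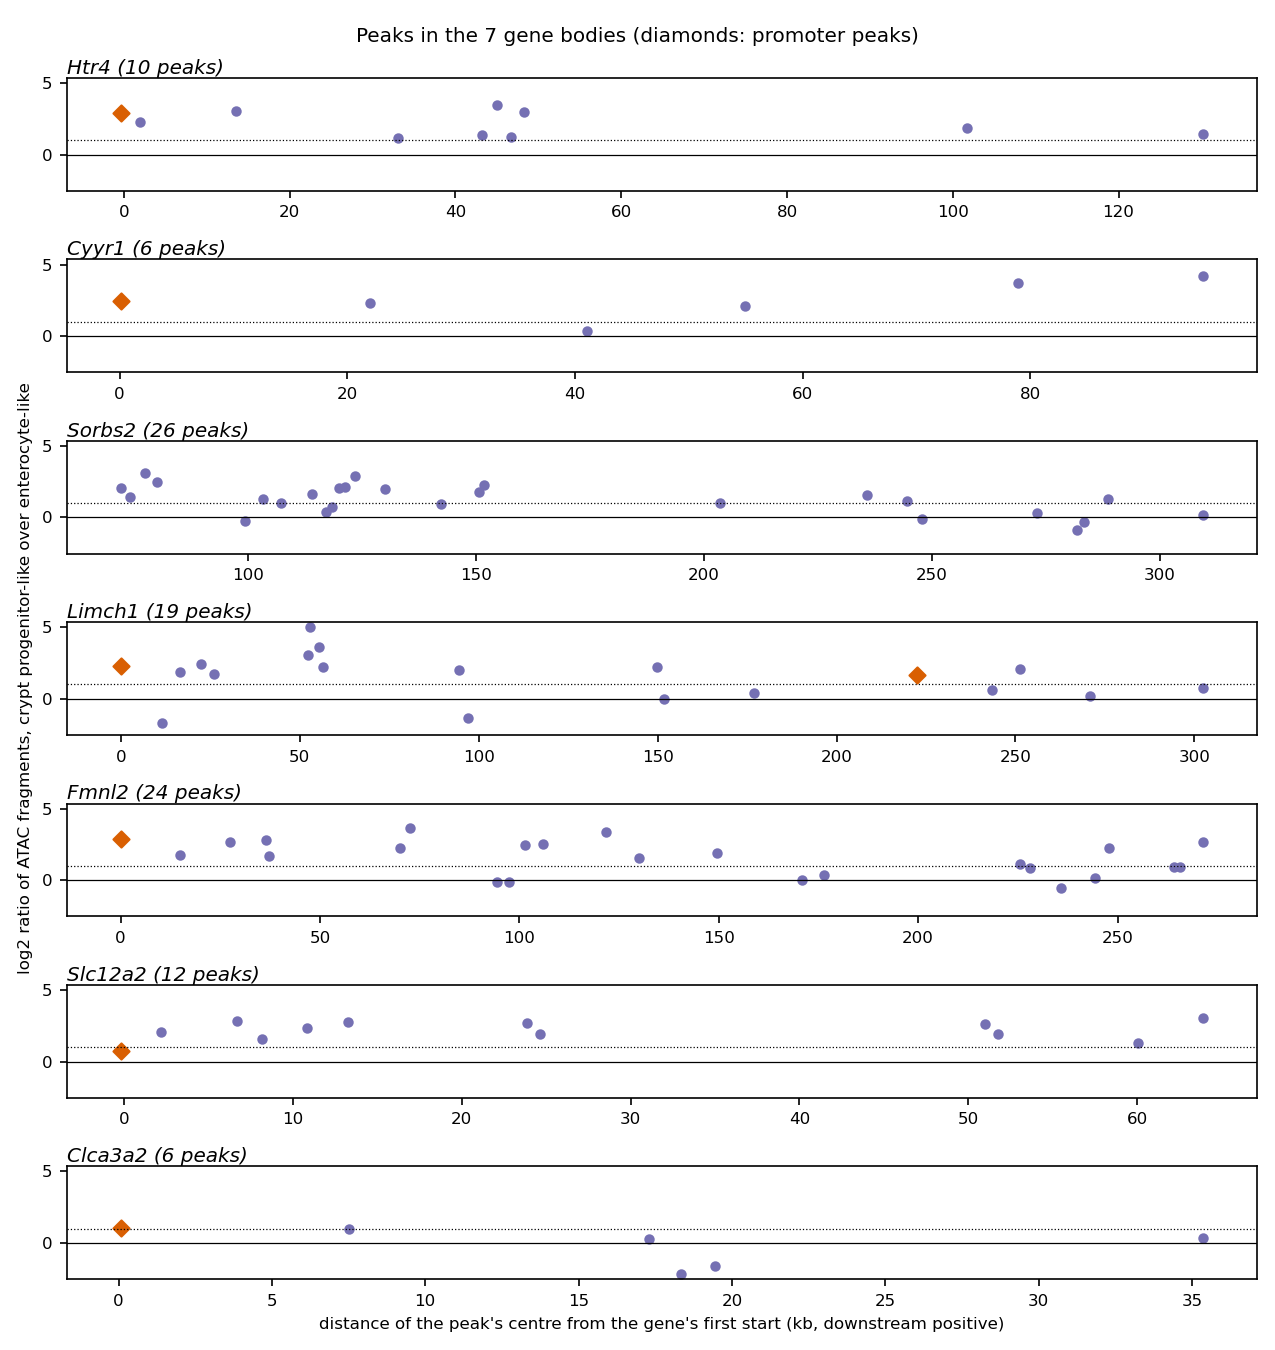
Each point is 1 peak in a gene body with at least 20 fragments, placed by its distance from the gene's first start in kb, with its log2 ratio of ATAC fragments in crypt progenitor-like over enterocyte-like cells (diamonds are promoter peaks, the dotted line is 2-fold, and the Sorbs2 peak before start 1 lies outside the gene body). The 12 peaks of Slc12a2 show 11 points above 2-fold and the promoter below it, and Clca3a2 shows 2 peaks below 0.

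Summed over the gene body, the log2 ratio of fragments was 3.09 for Cyyr1, 2.50 for Htr4, 2.07 for Fmnl2, 1.20 for Slc12a2, 1.19 for Limch1, 1.12 for Sorbs2 and 0.04 for Clca3a2. For every gene the RNA ratio was larger. With classes from ATAC clusters this did not hold against the promoter for Htr4 (3.12 for RNA, 3.23 for the promoter) and Fmnl2 (3.07 and 3.18). Across the 14 clusters RNA and gene-span fragments had an r between 0.74 (Htr4) and 0.89 (Fmnl2) for 6 genes and -0.40 for Clca3a2. With promoter fragments r was 0.92 for Limch1, 0.90 for Fmnl2 and 0.12 for Clca3a2.

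**Figure D5:**
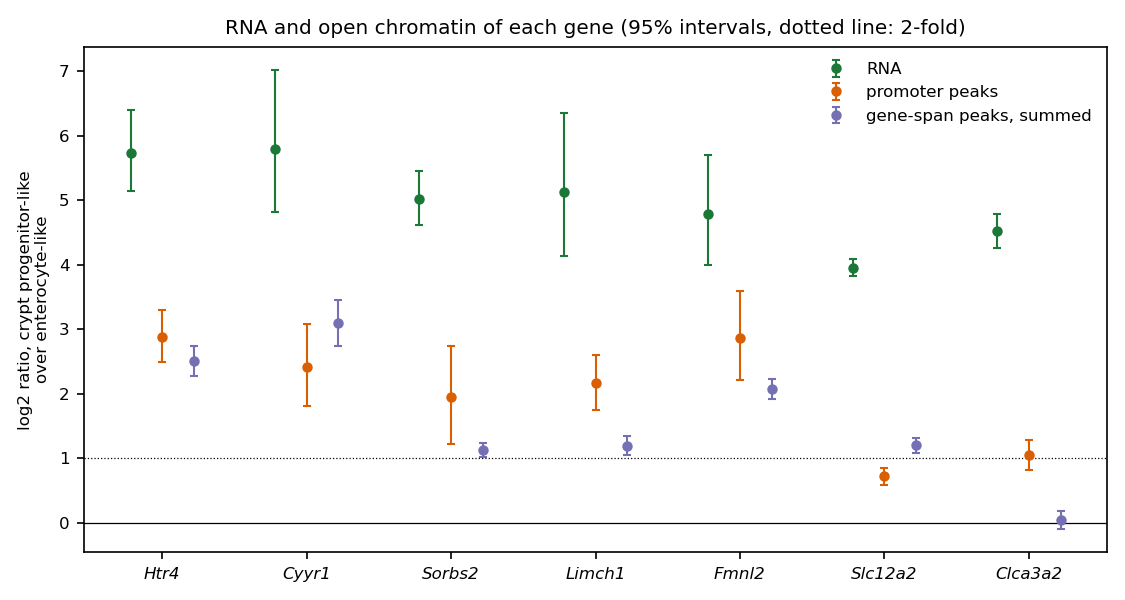
Log2 ratios of crypt progenitor-like over enterocyte-like cells for RNA, promoter peaks and summed gene-span peaks of each gene, with 95% counting intervals and the 2-fold line dotted. RNA ratios run from 3.95 (Slc12a2) to 5.80 (Cyyr1), and the chromatin points lie below them for all 7 genes, at 0.04 for the gene span of Clca3a2.

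Summed over the gene body, the point value of G2M over neither lay closer to 1 for chromatin than for RNA at every gene. For Fmnl2 the intervals of the 2 overlap. Of 82 gene-body peaks with enough fragments, 10 were at least 2-fold less open in G2M than in neither and 4 were more open, where 4.95% and 7.08% of 105713 peaks were. Limch1, Fmnl2 and Slc12a2 had 3 lower peaks each. Summed over the gene body, G2M over neither was 0.699 for Limch1 and 0.756 for Fmnl2, and 0.872 to 1.11 for the other 5 genes, whose intervals include 1. Promoter ratios of G2M over neither were 0.569 for Sorbs2 and 0.638 for Fmnl2, nearer to their RNA ratios of 0.456 and 0.553. These promoter ratios rest on 14 and 27 fragments in neither, and their log2 intervals include 0. That of Sorbs2 is from the faint peak before start 1 only. Its gene body, which holds the more open start 2, stood at 0.984. At Htr4 the promoter stood at 23.3 in neither, 21.4 in S and 21.1 in G2M, while its RNA stood at 442, 355 and 263.

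The Lgr5 split told the genes apart in chromatin too. Of 16 Limch1 peaks, 11 were at least 2-fold more open in cells with at least 2 Lgr5 UMIs than in cells with 0, and 29 of 90 over the 7 genes, where 8.02% of 114868 peaks were. Another 8 of the 90 were at least 2-fold less open, where 11.9% were. The Limch1 promoter stood at 26.1 (20.0 to 33.5) against 10.9 (9.45 to 12.5) and that of Fmnl2 at 14.1 (9.71 to 19.8) against 6.68 (5.56 to 7.96). The Htr4 promoter stood at 21.8 (16.2 to 28.7) and 21.3 (19.3 to 23.5), beside a 2.46-fold difference in its RNA. The promoter of Clca3a2 stood at 18.8 (13.7 to 25.3) and 23.1 (20.9 to 25.4). Only Limch1 and Fmnl2 passed 2-fold at the promoter, where 3.95% of all promoters did.

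Genes related to the 7 by family or pathway, chosen with earlier results of these data known, were counted between the crypt progenitor-like and enterocyte-like classes, and values in parentheses are log2 ratios. In this comparison 36.1% of all 6530 genes tested were at least 2-fold higher in crypt progenitor-like cells and 15.4% at least 2-fold lower, and each count below is to be read against these shares. A gene of the 7 is counted in its own family's list, where it is higher through the choice and adds to the count. Around Slc12a2, some other parts of intestinal chloride secretion were also higher: the apical chloride channel Cftr stood at 1604 CPM against 202 (a log2 ratio of 2.99), and the potassium channel genes Kcnq1, Kcnn4 and Kcne3 had log2 ratios of 4.54, 4.34 and 3.44. These were the 4 of 12 measured genes at least 2-fold higher, a share near that of all genes. Another 5 were at least 2-fold lower, among them the sodium-hydrogen exchanger Slc9a3 (-4.69) and the anion exchanger Slc26a6 (-3.65), and the median of the list was -0.59 beside 0.53 over all genes tested. Stk39, the SPAK kinase that activates NKCC1, stood at 396 against 56.1, and 3 of 5 measured kinases of its list passed 2-fold (Stk39, Wnk2 and Wnk4). Among other SLC12 genes with enough UMIs, Slc12a8 was higher (1.30), and Slc12a7 (-0.58) and Slc12a9 (0.68) lay within 2-fold.

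The CLCA family split between crypt and villus. Besides Clca3a2, the neighbouring family members Clca3b (1273 against 114) and Clca3a1 (109 against 20.4) were higher in crypt progenitor-like cells. Clca4a (60.2 against 2247), Clca4b (193 against 1453) and the goblet gene Clca1 (49.9 against 165) were lower. Thus 3 of 6 measured members lay on each side, the chosen Clca3a2 among the higher, beside 36.1% and 15.4% of all genes. Reads of such closely related genes may be shared between them, so the single values of Clca3a1, Clca3a2 and Clca3b are less certain.

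Htr4 was the only one of 14 serotonin receptor genes with at least 20 UMIs over both classes, and the next, Htr2c, had 10 UMIs in the crypt progenitor-like class. Tph1 stood at 474 CPM in enteroendocrine-like cells and had 2 UMIs in crypt progenitor-like cells. Of the genes of serotonin synthesis, uptake and breakdown, 0 of 5 measured were higher in crypt progenitor-like cells and 4 were lower (15.4% of all genes), among them Maob (-2.21), Slc18a1 (-2.19) and Maoa (-1.40). Below the receptor, 4 of 16 measured cAMP genes were higher, a smaller share than the 36.1% of all genes, and the list's median was 0.41 beside 0.53. The 4 were Pde4b (4.17), Rapgef4 (2.93), Prkacb (1.64) and Adcy6 (1.51). Adcy8 (-1.32) was lower.

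Among formins, 4 of 7 measured genes were higher in crypt progenitor-like cells, beside 36.1% of all genes. They were the chosen gene Fmnl2 (4.78), Diaph3 (4.14), Diaph2 (2.93) and Fhod1 (2.04), and Fmn1 was lower (-1.64). The close relatives Fmnl1 and Fmnl3 had 0 and 4 UMIs in crypt progenitor-like cells. Lmo7 (-2.28), a LIM domain gene related to Limch1, was lower in crypt progenitor-like cells, as were Myh14 (-2.22) and Mylk (-2.17) of the myosin II list. Sorbs3 had 2 UMIs in all. Abl2 (1.63) and Ptk2 (1.04) were the other higher genes of the adhesion list (3 of 9 measured, the chosen Sorbs2 among them, beside 36.1% of all genes). Shisa7 (3.70, on 19 UMIs and 1) and Shisa2 (1.24) were higher in the list with Cyyr1 (3 of 4 measured, the chosen Cyyr1 among them). Shisa5 (0.88) was within 2-fold. Of the stem cell and Wnt target list 21 of 23 measured genes were higher, led by Lgr5 (4.71), Tnfrsf19 (4.50) and Smoc2 (4.36), and Sp5 (-1.03) and Tcf7l2 (-1.03) were lower. Some of these genes were also used as markers to name clusters.

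Several of the 7 genes share their span with other transcripts. Sorbs2 overlaps 5 annotated non-coding genes, among them Sorbs2os, Limch1 overlaps 2 such genes and 2 pseudogenes, Htr4 and Clca3a2 overlap a pseudogene each, and Htr4 and Fmnl2 a non-coding gene each. Whether strand was used in counting is not stated, so reads of overlapping genes may not be told apart. The levels are also shares of nuclear-encoded RNA within a class, so less RNA of a gene and more of other RNA cannot be told apart.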

How the data were processed

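RNA and open chromatin (ATAC) of the same cells were measured in 1 animal, as a pair of 10x Multiome libraries. The authors deposited raw counts per gene and per peak for each barcode, made with Cell Ranger ARC 2.0.2 on mm10 per the submitters' processing notes. Whether strand was used, and how doublets were handled, is not given in the sources used here. Of the deposited peak counts above 0, 87.6% were even, so fragments were taken as count/2, with odd counts raised by 1 first.

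Barcodes with at least 500 UMIs, 300 genes and 1000 peak counts were kept, with a median of 5591 UMIs, of which 1547 were nuclear-encoded, and 12884.5 peak counts. Cells were clustered with Leiden (leidenalg 0.10.2, resolution 1) on 30 components of the 1500 most variable genes, with scanpy 1.11.5, scipy 1.17.1 and numpy 2.4.6. These were picked from a random part of all genes, 27573 genes, of which 8189 were seen in at least 10 cells. That part excludes the 7 genes, every pathway and cell cycle list and the mitochondrially encoded genes. Scrublet called 0 of 9872 cells at its threshold of 0.545 and is taken not to have worked, so doublets remain. The planned contrast of a stem-like with other crypt clusters used ATAC clusters, because stem and cycling cells formed 1 RNA cluster at this resolution.

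There are no replicates, so no test was run: RNA and ATAC levels carry exact Poisson intervals and shares exact binomial (Clopper-Pearson) intervals at 95%, for counting error only. A gene or peak counts as different at 2-fold or more with at least 20 UMIs or fragments over both groups, and the share of all genes or peaks that reach this is printed beside. Only the ratios and their intervals were tested on simulated data, drawn as Poisson counts, the same model that the intervals assume. Clustering, thinning, cell cycle states and the assignment of peaks were not tested in this way.

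The members and lists were chosen with earlier results of these data known. Named genes are the 7 members, the 3 genes most like each in pattern (at least 200 UMIs), family members and the 3 genes of each pathway list with the largest ratios, and named peaks are those with the largest ratio per gene (at least 50 fragments). Motifs were searched in promoters only, and peak sequences were not analysed here. Some members of these lists, 1 list and the promoter windows not printed are not reported here. Other genes named from the pathway lists were chosen after their values were seen. Alternatives were other library sizes, filters, resolutions, ATAC clusters, thinning, state limits, promoter windows and fragment minimums, and 3 more were added after seeing the data.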

Additional observations from a re-analysis of the deposited data

How the results depend on the processing

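No paired analysis was possible because 1 animal was measured and no result comes from a test. Between the crypt progenitor-like and enterocyte-like classes, all 7 genes passed 2-fold under each of the alternatives run. Their log2 ratios, 3.95 to 5.80, became 2.59 to 3.42 with ATAC clusters and 4.88 to 6.73 per UMI of all kinds, mitochondrial ones included. Between stem-like and cycling-like cells the count was 6 of 7, 5 after thinning to 500 UMIs and 4 with RNA clusters at resolution 2. The count of genes at least 2-fold lower in G2M than in neither, 2 of 7, became 4 with cycling-like over stem-like clusters at resolution 2, 3 with 2 list UMIs or without the highest 8% of doublet scores, and 0 in cells with a Lgr5 UMI, an alternative chosen after seeing the data. The cause was not tested. For promoters, 6 of 7 became 5 with ATAC clusters and 5 of 6 with a window of 500 bases. For gene-body peaks, 70 of 103 became 26 of 34 with at least 100 fragments, where fewer peaks were counted. Of 181 values of single genes under alternatives, 41 lay outside the counting interval of the reported value. A reversal was counted only where the reported difference was at least 2-fold, and 0 of these reversed. Changes of sign in smaller reported differences were not counted as reversals. Depth limits the tuft-like, lymphocyte-like and Tph1-high enteroendocrine-like values, which rest on few UMIs, and 1 animal gives no spread between animals.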
